A study of Mus musculus with 47 samples.

Results

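Cells labelled as Zmynd8-deficient Raw264.7 that had received the D/E-A mutant of Zmynd8 were compared with those labelled as the same knockout with WT Zmynd8, over all 12771 genes of the table that holds both libraries. Per the labels both lines carry the Zmynd8 knockout (Zmynd8 KO) and differ in the form of ZMYND8 put back. In the D/E-A form the acidic residues of the intrinsically disordered region, aspartic acid (D) and glutamic acid (E), are replaced by alanine (A). The 2 libraries are among 47 samples of a series on ZMYND8 in macrophages, and there was 1 library of each line, so that no difference below has a replicate check. Raw264.7 is a macrophage-like line transformed by Abelson leukaemia virus in a male BALB/c mouse, and a line rescued by a transgene has the level and the promoter of that transgene rather than those of the native gene. The labels name the cell type as Raw264.7, the source as bone marrow and the strain as C57BL/6. They name vehicle or LPS (bacterial lipopolysaccharide) as treatments of the series and do not say which of the 2 applied to these libraries, which the study's text describes as taken after LPS, and they give no age or sex.

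ZMYND8 is a chromatin reader that binds acetylated and methylated histone tails and works with enzymes that remove active marks, among them the histone demethylases LSD1 (Kdm1a) and KDM5C and the NuRD complex with HDAC1. In macrophages, Toll-like receptor signals release NF-kB and interferon regulatory factors, which switch on enzymes such as the inducible nitric oxide synthase, chemokines that call in monocytes and T cells, and a second wave of interferon-stimulated genes. The comparison asks which of these genes differ when ZMYND8 keeps its reader modules and loses the acidic residues of its disordered region.

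The WT Zmynd8 library held 18343492 reads over the listed genes and the D/E-A library 17930091. Values are normalised read counts whose steps gave back whole reads, and a fold change is the log2 of the D/E-A value plus 1 over the WT Zmynd8 value plus 1. The limits in brackets are 95% exact (Clopper-Pearson) intervals on the reads and cover counting error only, and spread between cultures is not in them. In the WT Zmynd8 column 21 reads is the lowest entry, whereas 1042 genes had less than that with D/E-A. Genes silent with WT Zmynd8 that came on with D/E-A are therefore not in it, and at its low end the table can hold lower genes more readily than higher ones.

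Several markers did not follow the cell type on the label. Xist, the RNA that coats the inactive X chromosome of female cells, had 8467 reads with WT Zmynd8 and 8062 with D/E-A, against 2 and 0 in the 2 p65-rescued Raw264.7 libraries of the series, whereas the Y-linked gene Ddx3y had 0 reads in the Zmynd8 KO library and 400 and 1810 in the p65-rescued ones. Markers of other blood cells were also read: the B cell receptor component Cd79a gave 862 and 768 reads, and the neutrophil protein S100a9 gave 64343 and 20934. The defining macrophage genes Adgre1 (F4/80), Csf1r and Itgam were present in both libraries, with 6185, 5553 and 3960 reads in that order with WT Zmynd8. The rescued lines are therefore called below by their labels only.

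Zmynd8 itself (chr2:165784152-165898981 in mm10, minus strand) had similar reads in both rescues, with 485 reads with WT Zmynd8 and 497 with D/E-A, a log2 fold change of 0.10 (-0.08 to 0.29) and -0.44 less the median of genes of like length. In RPM (reads per 1000000 reads of the listed genes) this was 26.4 and 27.7, below the 117 and 64.3 of the WT p65 and K122R libraries. The entry for the Zmynd8 KO library was no whole number of reads, the 1 such value among the 23772 genes of that column, and is not used. Reads from the transgene and from the edited gene cannot be told apart in these values. Of the enzymes that ZMYND8 works with, Kdm1a had 931 and 989 reads (log2 0.15), Kdm5c 1768 and 2880 (0.77), and Hdac1 1639 and 2548 (0.70). Of the 28 listed chromatin partners, 17 were at least 1.2-fold higher and 2 at least 1.2-fold lower with D/E-A, where 36.7% and 35.9% of all 12771 genes were, and 0 passed 2-fold. Their median was 0.36, and 0.02 once the median of genes of like length was taken off, with 4 then higher and 8 lower.

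The 1.2-fold rule called 4686 genes higher and 4585 lower with D/E-A (72.6% of all genes), which is close to the whole table, so a 2-fold rule is given beside it. At 2-fold, 886 genes were higher (6.94%) and 1459 lower (11.4%). Among the 2736 genes with a mean normalised count of at least 1000 the balance was the other way, with 368 higher and 99 lower. The median over all genes was 0.02 on the log2 scale, and 0.32 over those 2736 genes. Read totals taken without ribosomal RNA as the size factors moved the median of all genes by -0.20 and gave 3347 genes higher and 5859 lower at 1.2-fold. Beside the ribosomal RNA genes named below, and Rn45s where listed, these totals left out 2 further entries. They were Lars2 (136406 and 42577 reads) and the unnamed transcript ENSMUSG00000097971.3 (44638 and 9393).

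The fold change followed transcript length. In 10 classes of equal size over the 8364 protein-coding genes with a mean count of at least 100, the median log2 fold change climbed at each step, from -0.64 in the shortest transcripts (up to 1314 nucleotides) to 0.60 in the longest (from 6776 nucleotides). In the shortest class 192 of 837 genes were at least 2-fold lower and 4 were higher, while in the longest 0 of 837 were lower and 172 were higher. Across these genes Spearman's correlation between fold change and length was 0.53, and between fold change and GC content -0.34, as a description of genes that share 2 libraries. Zmynd8 KO cells against the same WT Zmynd8 library went from -0.19 in the shortest class to 0.23 in the longest, conditional knockout against WT bone-marrow-derived macrophages (BMDMs) after LPS from -0.12 to 0.33, and K122R against WT p65 from 0.01 to -0.02. Ribosomal RNA also differed: the genes Rn18s-rs5, LOC101056014, mt-Rnr1 and mt-Rnr2 together took 17.9% of reads with WT Zmynd8 and 8.42% with D/E-A. Rn18s-rs5 alone had 2526916 and 1166166 reads, against 28068 and 84832 in the WT p65 and K122R libraries. What part of any gene's difference goes with length or with ribosomal RNA was not tested, so the fold change less the median of the gene's own length class is given beside the results as its length-centred value. On that scale 3163 of 11319 genes were at least 1.2-fold higher and 4077 lower. Every length-centred count is to be set beside these numbers, and not beside the 36.7% and 35.9% of all genes before centring.

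**Figure D1:**
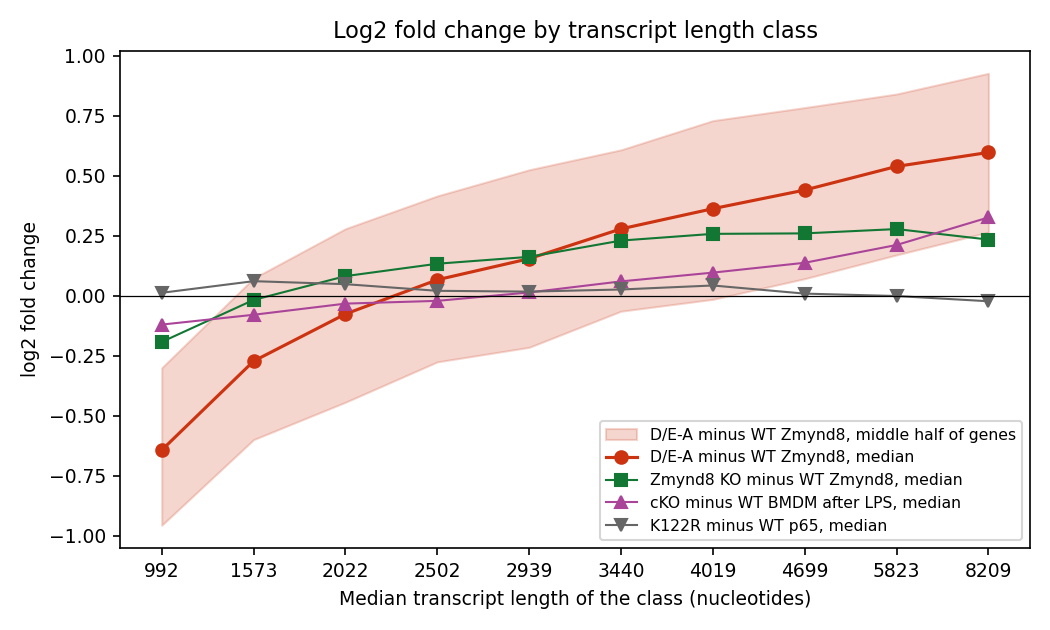
Median log2 fold change (y axis) in 10 transcript length classes (x axis, median length in nucleotides) of protein-coding genes with a mean count of at least 100, with 1 library on each side of every comparison. Circles are D/E-A minus WT Zmynd8 with the range from the lower to the upper quartile shaded, and run from -0.64 to 0.60, a steeper course than in the 3 other comparisons.

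Nos2, which encodes the inducible nitric oxide synthase, was the highest with D/E-A of the 2736 abundant genes. It had 9199 reads with WT Zmynd8 and 49114 with D/E-A, 5.59-fold higher (log2 2.48, 2.45 to 2.52), and ranked 5th from the top of 12771 genes. Its length class had a median of 0.36, so its length-centred value was 2.12. Genes that supply it with arginine, and other enzymes of classically activated macrophages, differed less. Slc7a2, the arginine transporter, had 7795 and 17663 reads (1.25) and Acod1, which makes itaconate, 58349 and 97034 (0.80), whereas the arginine-making enzyme Asl had 601 and 342 (-0.74). Of the 14 genes in that list, 5 were at least 1.2-fold higher, a share near the 36.7% of all genes, and 2 lower, with a median of 0.11.

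Chemokines differed in both directions. All 4 of the CC chemokines that attract monocytes were higher with D/E-A by at least 1.2-fold, as were 36.7% of all genes. Ccl2 (chr11:82035577-82037452) had 1503 and 3260 reads, 2.27-fold higher (log2 1.18, 1.096 to 1.27), and Ccl8 had 71 and 148 (1.12, 0.71 to 1.56). Ccl7 had 3479 and 4441 reads (0.42) and Ccl12 793 and 921 (0.28). Library totals as size factors moved the median of all genes by -0.034, and totals without ribosomal RNA by -0.20. The 1.2-fold call therefore depends on the scaling for Ccl12, and for Ccl7 where ribosomal RNA is left out. These transcripts are short, in classes with a median of -0.64, and the length-centred median of the 4 was 1.41.

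The 3 ligands of CXCR3, the receptor of activated T and NK cells, were higher as well, beside the same 36.7% of all genes. Cxcl9 had 1339 reads with WT Zmynd8 and 7114 with D/E-A (log2 2.48, 2.39 to 2.56), Cxcl10 had 47011 and 68856 (0.62, 0.60 to 0.63) and Cxcl11, typed in the table as a transcribed pseudogene, had 2073 and 3123 (0.66, 0.58 to 0.74). Cxcl9 thus differed as much as Nos2, while Cxcl10, by far the more abundant of the 3, differed by 1.53-fold. All 3 lie side by side on chromosome 5, and their length-centred values were 2.32, 0.89 and 0.93. RefSeq promoter windows (GRCm38.p6) were at hand for Cxcl9 and Cxcl10, and not for Cxcl11, Ccl2 or Nos2. They are shown because these neighbouring ligands differed by such unequal amounts. Each holds the 250 bases before the start, minus strand of chromosome 5, and capitals mark matches on either strand to the kappaB motif or to the core of the interferon-stimulated response element (GAAA, any 2 bases, GAAA).
Cxcl9, chr5:92328080-92328329: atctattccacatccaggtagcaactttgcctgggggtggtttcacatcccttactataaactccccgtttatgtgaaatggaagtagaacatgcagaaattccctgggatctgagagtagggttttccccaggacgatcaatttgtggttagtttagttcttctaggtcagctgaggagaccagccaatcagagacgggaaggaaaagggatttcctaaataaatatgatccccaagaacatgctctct
Cxcl10, chr5:92348890-92349139: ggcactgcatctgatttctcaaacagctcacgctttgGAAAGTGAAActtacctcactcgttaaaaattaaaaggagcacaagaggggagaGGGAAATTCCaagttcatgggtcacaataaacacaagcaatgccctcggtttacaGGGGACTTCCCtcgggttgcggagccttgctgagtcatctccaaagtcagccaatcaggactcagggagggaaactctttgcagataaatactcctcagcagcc
The Cxcl10 window held 1 match to the response element core and 3 to the kappaB motif, of which 2 overlap, and the Cxcl9 window held neither. Among 27025 genes with a window of this length, 7.01% held a kappaB match and 3.04% a match to the core. A match is a run of letters and not a measured site.

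The remaining chemokines were mostly lower or within 1.2-fold. Of 8 other CC chemokines, 4 were at least 1.2-fold lower with D/E-A and 1 was higher, beside 35.9% and 36.7% of all genes. Ccl24, an eosinophil attractant, had 1962 and 512 reads (-1.87, -2.01 to -1.73), Ccl22, which attracts regulatory T cells, 3854 and 1845 (-0.995, -1.08 to -0.92), and Ccl17, which shares its receptor CCR4, 35 and 15 (-1.11). Ccl5 was the most abundant, with 80601 and 62473 reads (-0.30), and turned to 0.34 once length-centred. On that scale the 8 were even, with 3 higher, 3 lower and a median of 0.05 in place of -0.19. The neutrophil attractants were lower: Cxcl1 had 536 and 139 reads (-1.87, -2.16 to -1.61), Cxcl2 5828 and 2638 (-1.08) and Cxcl3 732 and 300 (-1.22). With the platelet factor Pf4 (7438 and 3061 reads, -1.21), these made 4 of 7 in that list past 2-fold lower and 0 higher, against 11.4% and 6.94% of all genes. The median of these 7 was -1.08, and -0.57 once length-centred.

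**Figure D2:**
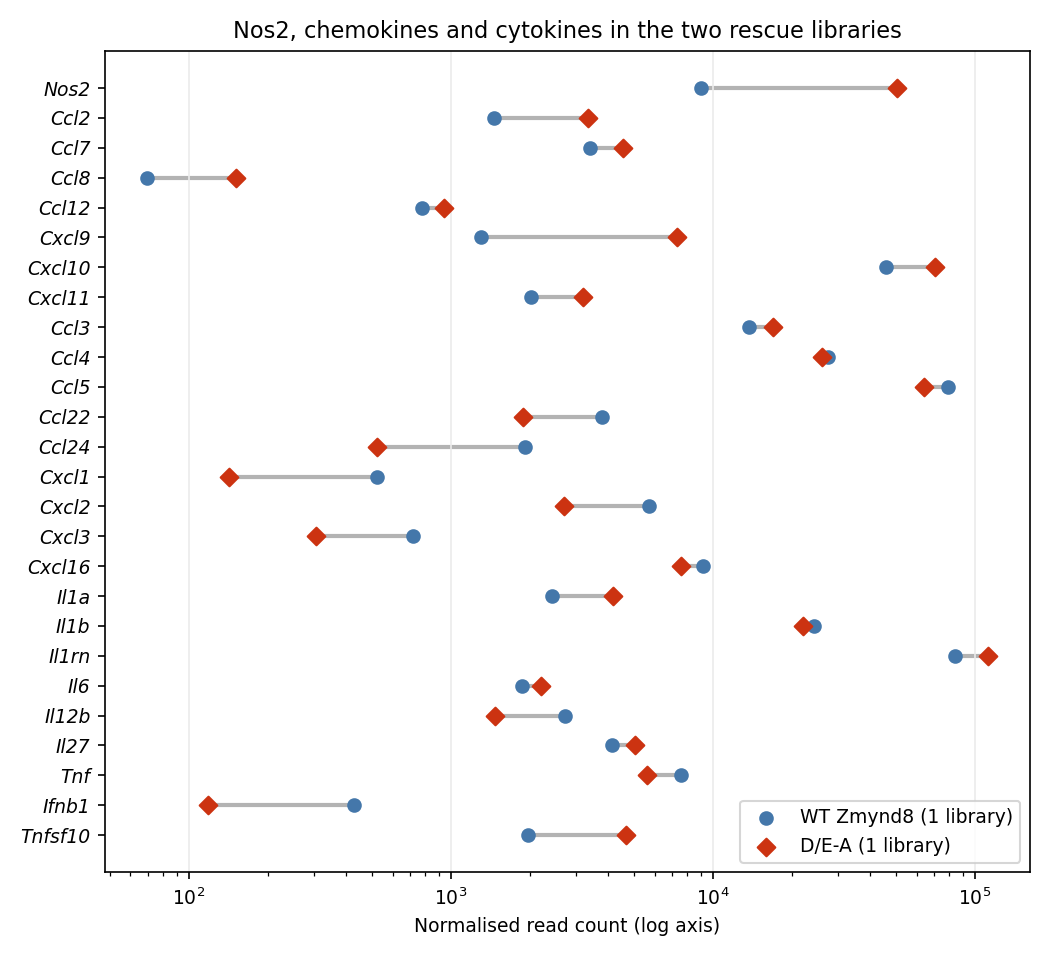
Normalised read count (x axis, log scale) of Nos2, chemokines and cytokines (y axis) with WT Zmynd8 (circles) and D/E-A (diamonds), 1 library each and no error bars. Nos2 and Cxcl9 lie farthest apart to the right, while Ccl24, Cxcl1 and Ifnb1 lie to the left with D/E-A.

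Cytokine transcripts differed in both directions, with 6 of 22 at least 1.2-fold higher and 6 lower, both below the shares of all genes (36.7% and 35.9%). Length-centred, 10 were higher and 5 lower, and the median went from -0.08 to 0.18. Tnfsf10 (TRAIL), a death ligand of the TNF family, had 2017 and 4571 reads (1.25), Il1a 2503 and 4078 (0.77) and the IL-1 receptor antagonist Il1rn 86090 and 109458 (0.41). The interferon gene Ifnb1 had 439 and 116 (-1.84, -2.16 to -1.55), Lif 42 and 16 (-1.27) and Mif 2003 and 1002 (-0.93). Il6 had 1912 and 2160 reads (0.24) and Il1b 24943 and 21677 (-0.14, length-centred 0.14), both within 1.2-fold, while Tnf was at -0.43 and Il12b at -0.88. Il27 had 4239 and 4915 reads (0.28, length-centred 0.92). Of their receptors, 21 of 26 were at least 1.2-fold higher, beside 36.7% of all genes, 6 of them past 2-fold, and the list median was 0.58. Csf1r, the M-CSF receptor, had 5553 and 13077 reads (1.30), Il1r1 28 and 60 (1.14), Tgfbr2 352 and 730 (1.12) and Il13ra1 678 and 1379 (1.09). These are long transcripts, and once length-centred 12 were higher and 4 lower (median 0.25).

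Of the NF-kB subunits, 3 of 5 were at least 1.2-fold higher, beside 36.7% of all genes, and 2 once length-centred. Nfkb1 had 5401 and 10671 reads (1.05), Rel 678 and 1302 (1.01), Rela 2846 and 3334 (0.30) and Nfkb2 11832 and 12509 (0.15). Of the inhibitors that NF-kB induces against itself, 9 of 15 were higher and 4 lower (median 0.53). Tnfaip3 (A20), a ubiquitin-editing brake, had 9447 and 23842 reads (1.40) and its partner Tnip3 8496 and 21046 (1.38), whereas Nfkbia (IkBa) had 39011 and 21551 (-0.79). Of 27 NF-kB target genes, 17 were at least 1.2-fold higher and 8 lower, beside 36.7% and 35.9% of all genes (median 0.38), with genes such as Ptgs2 (5206 and 12791 reads, 1.36) and Plek (13589 and 27719, 1.095) past 2-fold and the most abundant, Saa3, lower (108664 and 70891, -0.55). Once length-centred, 7 of 15 inhibitors were higher and 4 lower (median 0.18) and 13 of 27 targets higher and 3 lower (median 0.17). Of all genes on that scale, 3163 of 11319 were higher and 4077 lower. The wider KEGG pathway of NF-kB signalling was near the whole table, with 30 higher and 24 lower of 79 (median 0.12), and 20 higher and 26 lower (0.03) once length-centred.

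Among Toll-like receptors and their adaptors, 16 of 27 were at least 1.2-fold higher and 4 lower (median 0.43), beside 36.7% and 35.9% of all genes. Once length-centred 11 were higher and 7 lower (median 0.11). The 3 past 2-fold were endosomal receptors for nucleic acids, and Tlr3 (0.90) and Tlr13 (0.22), of the same kind, were not. Tlr9, the receptor for unmethylated CpG DNA, had 553 and 2082 reads (1.98, 1.84 to 2.12), Tlr8 603 and 1909 (1.73) and Tlr7 1898 and 4069 (1.17). Cd14, which hands LPS to its receptor, had 12674 and 13726 (0.18). Of the early-response factors, Egr3 had 43 and 105 reads (1.33), Fos 206 and 483 (1.29) and Jun 838 and 1774 (1.15), while Fosl1 had 63 and 21 (-1.48). That list had, beside the 36.7%, 9 of its 15 genes at least 1.2-fold higher, 4 lower and a median of 0.53.

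The interferon-induced GTPases, which attack the vacuoles of intracellular microbes, were higher almost throughout. At 1.2-fold 15 of 16 were higher with D/E-A (36.7% of all genes) and 0 lower (35.9%), 6 passed 2-fold (6.94%), and the median was 0.95. Iigp1 had 5598 and 14131 reads (1.40), Tgtp2 2393 and 5792 (1.34), Irgm2 2716 and 5850 (1.17), Gbp3 7683 and 15800 (1.11) and Gbp2 19200 and 38210 (1.06), with Gbp8 the single member below 0 (-0.13). The length-centred median was 0.80, and 15 of 16 were still at least 1.2-fold higher. Several of these genes have close copies that can share reads, Tgtp1 and Tgtp2 among them, so that their split is uncertain.

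Antiviral interferon-stimulated genes were higher in 32 of 49 and lower in 7 at 1.2-fold, beside 36.7% and 35.9% of all genes, with a median of 0.50 and a length-centred median of 0.33. Cmpk2 had 23703 and 66072 reads (1.55), Ifit2 32183 and 82197 (1.42), the RNA sensor Ifih1 7784 and 19034 (1.36), and Rsad2 (viperin), the most abundant, 135738 and 206333 (0.67). Other members were lower, as with Isg15 (-0.43), Ifitm3 (-0.47), Bst2 (-0.89) and Oas1g (-1.05). The first 2 of these are short, and stood at 0.21 and 0.17 once length-centred. Stat3 had 6567 and 12973 reads (1.05) and the cytokine-signalling brake Socs3 8089 and 21814 (1.498, 1.46 to 1.54). Over the STAT and SOCS genes 12 of 15 were at least 1.2-fold higher and 3 lower (median 0.72), beside the same shares of all genes, and once length-centred 6 were higher and 3 lower (median 0.14). The interferon regulatory factors were mixed, with Irf2 (1601 and 3040 reads, 0.99) and Irf1 (4100 and 6430, 0.72) higher, and Irf3 (950 and 503, -0.85) lower.

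**Figure D3:**
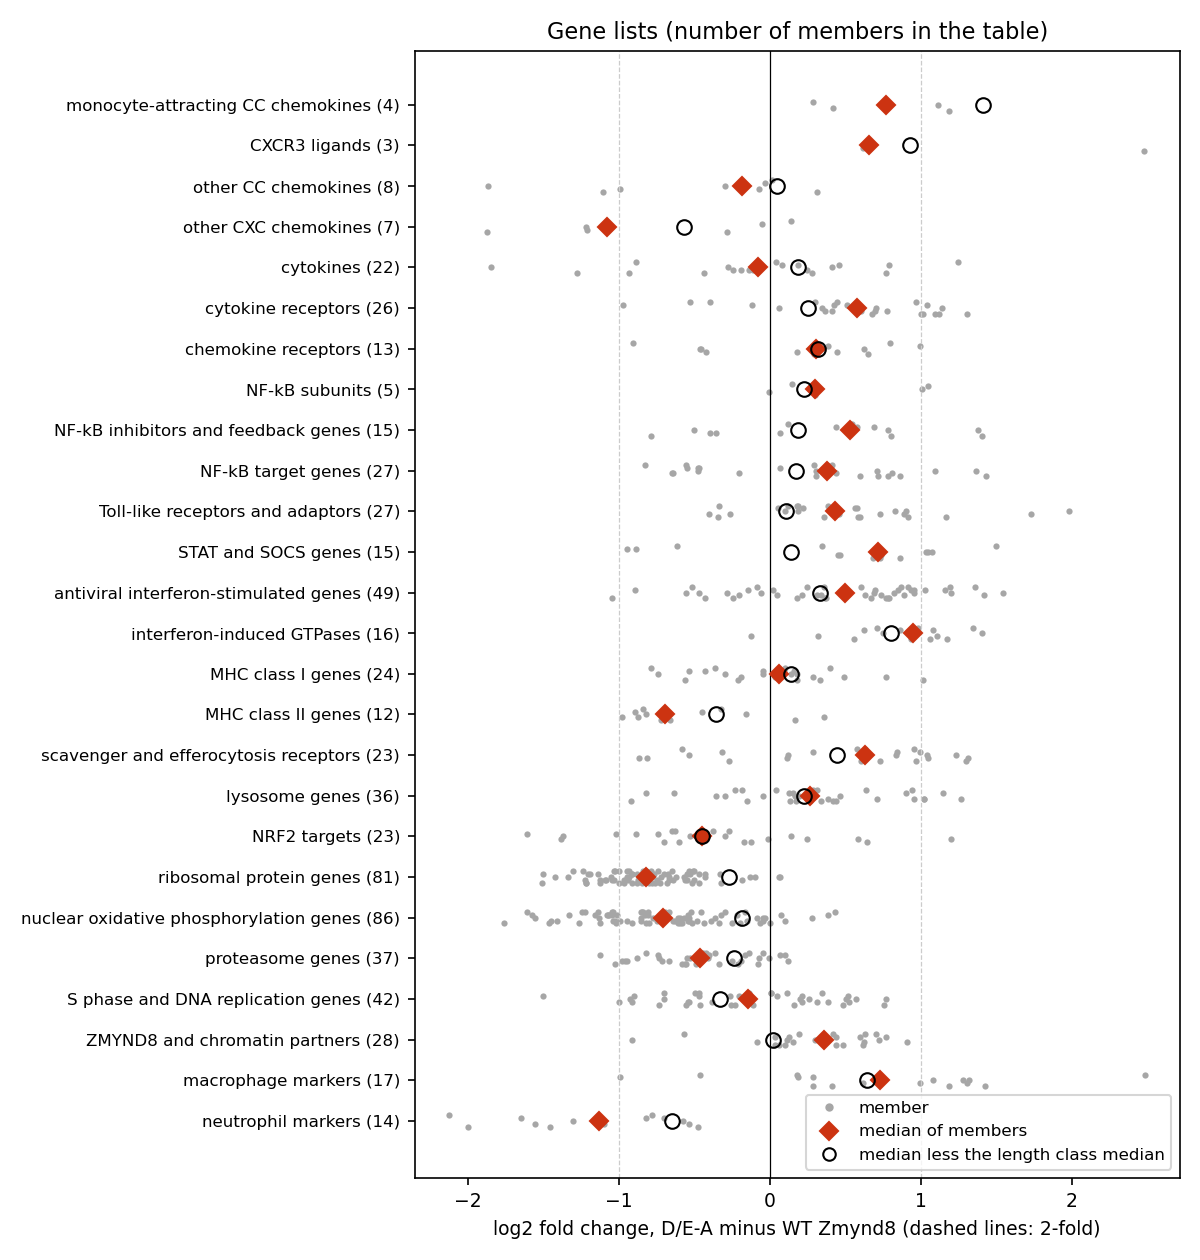
Log2 fold change of D/E-A minus WT Zmynd8 (x axis) for the members of 26 gene lists (y axis, with the number of members in the table). Grey points are members, diamonds their median and open circles the median after the length class median is taken off. The interferon-induced GTPases move from 0.95 to 0.80 and the ribosomal protein genes from -0.82 to -0.27.

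Transcripts for antigen presentation by MHC class II were mostly lower. Of 12 genes, 9 were at least 1.2-fold lower and 1 higher, beside 35.9% and 36.7% of all genes, and 0 passed 2-fold, with a median of -0.69 and a length-centred median of -0.35. The invariant chain Cd74 had 18276 and 9370 reads (-0.90), H2-Ab1 5536 and 2878 (-0.88) and H2-Oa 61 and 29 (-0.98), while the protease Ctss was level (24062 and 25823, 0.17). Class I genes were 6 higher and 7 lower of 24, both below those shares, and 10 higher and 3 lower once length-centred, with their transactivator Nlrc5 higher (5120 and 9884 reads, 1.02) and the immunoproteasome subunit Psmb10 lower (14403 and 8242, -0.74). Cd274 (PD-L1) had 8518 and 19093 reads (1.23).

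Genes named for the macrophage itself were higher. Of 17 macrophage markers, 13 were at least 1.2-fold higher and 2 lower, beside 36.7% and 35.9% of all genes, with a median of 0.73 (length-centred 0.64), a list that holds Nos2, Ccl2 and Cxcl10 too. Adgre1 had 6185 and 15882 reads (1.43), the leukocyte phosphatase Ptprc 4788 and 11381 (1.32) and the lysozyme Lyz2 38723 and 89505 (1.28), whereas Aif1 was lower (-0.995). Lyz1, the neighbour and near-identical copy of Lyz2, had 1389 and 80 reads (-4.03), and how reads were split between the 2 is not known. The mannose receptor Mrc1, a marker of alternative activation, had 325 and 1288 reads (2.05, 1.88 to 2.23), and Fn1 323 and 1025 (1.73), in an alternative-activation list with 7 higher and 6 lower of 18, near the shares of all genes, and Chil3 at 20416 and 12910 (-0.59). Beside the same shares, 15 of 23 scavenger and efferocytosis receptors were higher and 6 lower (median 0.63), the former with Lrp1 (1691 and 3971 reads, 1.30) and Stab1 (2042 and 4019, 1.04).

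Markers of some other cells also differed between the libraries. Of the neutrophil genes, 14 of 14 were at least 1.2-fold lower with D/E-A (35.9% of all genes) and 8 past 2-fold (11.4%), and their summed level was 10702 RPM with WT Zmynd8 and 4564 with D/E-A. S100a9 (-1.55), Camp (17477 and 5310 reads, -1.65), Retnlg (1279 and 305, -1.998) and Ly6g (236 and 51, -2.12) lay lowest. These are short transcripts, and 11 of the 14 were still at least 1.2-fold lower after length-centring (median -0.65). Over the macrophage list the summed level was 9862 and 18609 RPM. That sum includes the activation genes Nos2 (501 and 2739), Cxcl10 (2563 and 3840) and Ccl2 (81.9 and 182), and a sum without them was not taken. Beside 35.9% of all genes lower and 36.7% higher, erythroid and megakaryocyte genes were lower in 7 of 8 (summed 645 and 331). Dendritic cell genes were lower in 7 of 11 with 3 higher (1419 and 781). T, NK and B cell genes were lower in 5 of 18 with 5 higher (533 and 553), below these shares. Once length-centred, the 3 lists had 5, 7 and 2 members lower and 1, 2 and 7 higher, in that order. Mast cell, basophil and eosinophil genes summed to 212 and 92.6, although 5 of their 8 members were higher and 3 lower (median 0.48). Sums of fibroblast and epithelial genes were 16.6 and 21.5. In RNA from whole cultures, a change in the share of a cell type and a change of RNA per cell cannot be told apart, and the part of these cells in the differences of chemokines and activation genes was not tested. Xist differed by less than its counting limits (-0.05 to 0.04).

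Groups of short transcripts were lower, by less once length-centred. Of 81 ribosomal protein genes 76 were at least 1.2-fold lower and 0 higher (median -0.82), beside 35.9% and 36.7% of all genes, and 41 were lower once length-centred (median -0.27), as with Rpl38 (4630 and 1549 reads, -1.51) and Rplp0 (18569 and 12509, -0.50). Nuclear genes of oxidative phosphorylation were lower in 70 of 86 (median -0.71, length-centred -0.18), among them Ndufa2 (1929 and 543, -1.76), and proteasome genes in 25 of 37 (median -0.46, length-centred -0.24). The mitochondrially encoded subunits, which have no length class, went the other way, with 6 of 10 higher and 1 lower, COX1 at 19064 and 45863 reads (1.33). Histone genes, at 46.6 and 39.4 RPM in all, were lower in 10 of 15, but several members are near the 21-read entry level of the WT Zmynd8 column, and the median turned from -1.20 to 0.29 among members with a mean of at least 100. Small nucleolar RNA host genes were lower in 11 of 11 (median -0.89, length-centred -0.78).

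The antioxidant genes driven by NRF2 were lower in 15 of 23 and higher in 3, beside 35.9% and 36.7% of all genes. Their median was -0.45 both before and after length-centring, with 15 lower and 4 higher after it. Hmox1, the heme oxygenase, had 14625 and 5401 reads (-1.37), Osgin1 401 and 146 (-1.38), Nqo1 82 and 25 (-1.61) and the peroxiredoxin Prdx1 14991 and 8810 (-0.70). The catalase gene Cat was the 1 member past 2-fold higher. In the iron list the hormone hepcidin (Hamp) had 123 and 20 reads (-2.50) and ceruloplasmin (Cp) 4942 and 10242 (1.12), with 8 lower and 7 higher of 15, and 5 and 5 once length-centred. Cholesterol efflux genes were higher in 9 of 18 and lower in 5, beside 36.7% and 35.9% of all genes, and 6 higher and 4 lower once length-centred (median 0.30 and then 0.08). The lower ones held the apolipoproteins Apoc2 (969 and 270 reads, -1.77) and Apoe (219976 and 162895, -0.37) and the sterol sensor Nr1h3 (LXRa, 1462 and 700, -0.99). Sterol synthesis genes were higher in 11 of 24, beside 36.7% of all genes, and lower in 5, with Idi1 at 186 and 475 reads (1.41). The glycolytic activator Pfkfb3 had 9382 and 21192 (1.24), in a list with 13 higher and 12 lower of 33, close to the whole table, and 5 higher and 14 lower once length-centred.

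Lysosome genes were higher in 17 of 36, beside 36.7% of all genes, and lower in 5 (median 0.26, length-centred 0.22), for example Man2b1 (2580 and 5910 reads, 1.26) and Lamp2 (6784 and 13135, 1.02). The oxidase that makes superoxide differed by subunit, with Cybb (gp91phox) at 26667 and 41064 reads (0.69) and Cyba (p22phox) at 15054 and 6975 (-1.04). Of its 8 listed genes 2 were higher and 2 lower at 1.2-fold, both below the shares of all genes. Once length-centred, 0 were higher and 4 lower (median -0.15 and then -0.31), so Cybb was no longer past 1.2-fold. Of the matrix genes, the collagenase Mmp13 had 5483 and 17596 reads (1.75) and the protease inhibitor Timp1 4610 and 1189 (-1.89). That list had 7 higher, near the 36.7% of all genes, and 5 lower of 19. Its median was 0.17, and -0.10 once length-centred. Among prostaglandin and leukotriene genes the phospholipase Pla2g4a had 969 and 2661 (1.52). That list had 4 higher and 4 lower of 15, both below the shares of all genes. Its members ran from -1.35 to 1.82 with a median of -0.11. S phase genes were lower in 17 of 42, near the 35.9% of all genes, and higher in 10, with 23 lower once length-centred (median -0.33). Mitosis genes were higher in 15 of 40, near the 36.7% of all genes, and lower in 11, and were 8 higher and 13 lower once length-centred. Coactivators and histone methylases at enhancers were higher in 21 of 34, beside 36.7% of all genes (median 0.32), Ep300 at 1297 and 3090 reads (1.32), and the median turned to -0.06 once length-centred, with 7 higher and 10 lower.

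The extremes of the whole table were partly outside these lists. Among genes with a mean count of at least 100, those highest with D/E-A began with the predicted gene Gm39972 (85 and 658 reads, 3.00) and included the G-protein-coupled receptor Prokr1 (96 and 661 reads, 2.84, 2.54 to 3.17), the matrix protein Tnc (35 and 209, 2.61), the endothelial lipase Lipg (3062 and 14320, 2.29, 2.24 to 2.35), the recombinase Rag1 (123 and 516, 2.13), the Wnt receptor Fzd1 (156 and 608, 2.02), Lima1 (142 and 551, 2.02), Fam84b (91 and 353, 2.01), and the deacetylase Hdac9 (121 and 464, 1.997). Myadm (939 and 3360, 1.91) was the 5th highest of the abundant genes. Beside Lyz1, the lowest 15 held Nrp (203 and 28 reads, -2.75), the coagulation factor F7 (794 and 120, -2.65, -2.95 to -2.38), Erdr1 (815 and 156, -2.31), the microRNA gene Mir142b (301 and 63, -2.17) and the small nucleolar RNA host gene Snhg15 (200 and 42, -2.16). Among abundant genes the antibacterial proteins Pglyrp1 (3104 and 801, -1.89) and Slpi (7178 and 1951, -1.81) were near the bottom. The other 9 of the 15 lowest are predicted genes or unnamed transcripts, with Gm2423 at 382 and 1 reads.

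The Zmynd8 KO cells without rescue were measured against the same WT Zmynd8 library, so that the 2 comparisons share it and their values are only set side by side. Nos2 was 1.34 in the KO and 2.48 with D/E-A, Ccl2 0.92 and 1.18, Cxcl10 0.66 and 0.62, Cxcl9 1.00 and 2.48, and Lipg 1.54 and 2.29. Genes lower with D/E-A included Ccl24 (-1.20 in the KO and -1.87), Hmox1 (-1.12 and -1.37), Cd74 (-0.51 and -0.90) and S100a9 (-0.69 and -1.55). Other extreme genes were much nearer 0 in the KO or on the other side: Lyz1 0.29 and -4.03, Gm6472 0.29 and -5.22, Gm2423 -0.09 and -7.53, F7 -0.40 and -2.65, Gm39972 0.22 and 3.00, and Hdac9 0.08 and 1.997. Over the same 12771 genes, 225 (1.76%) were at least 2-fold higher and 832 (6.51%) at least 2-fold lower in the KO, though genes under 21 reads with WT Zmynd8 are not among the 12771, which keeps out genes that are higher from a low level. The interferon-induced GTPases had a median of 0.67 there, and the neutrophil genes one of -0.32.

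Other libraries give comparisons that share no sample with the rescues. The p65 mutant K122R against WT p65, in p65-deficient Raw264.7 cells after LPS, had Nos2 at 1.56, Cxcl9 at 0.05 on 15 reads in each library, Ccl2 at -0.43, Cxcl10 at 0.26 and Cd74 at 1.23. Across 11167 shared genes Spearman's correlation with the D/E-A fold changes was 0.07, and 0.125 over 10152 genes after the D/E-A values were length-centred. In BMDMs after LPS, where the Zmynd8 conditional knockout (cKO) was set against WT, Nos2 was at -0.02, Cxcl9 at -0.02, Ccl2 at 0.34, Cxcl10 at 0.10 and Il1b at 1.42, and Zmynd8 had 1967 estimated counts in WT and 2033 in the cKO. The same measure over 10364 shared genes was 0.30, and 0.09 over 10226 genes after the D/E-A values were length-centred. These are descriptions across genes, which are not independent replicates. The cKO fold changes had a length course of their own, as given above.

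**Figure D4:**
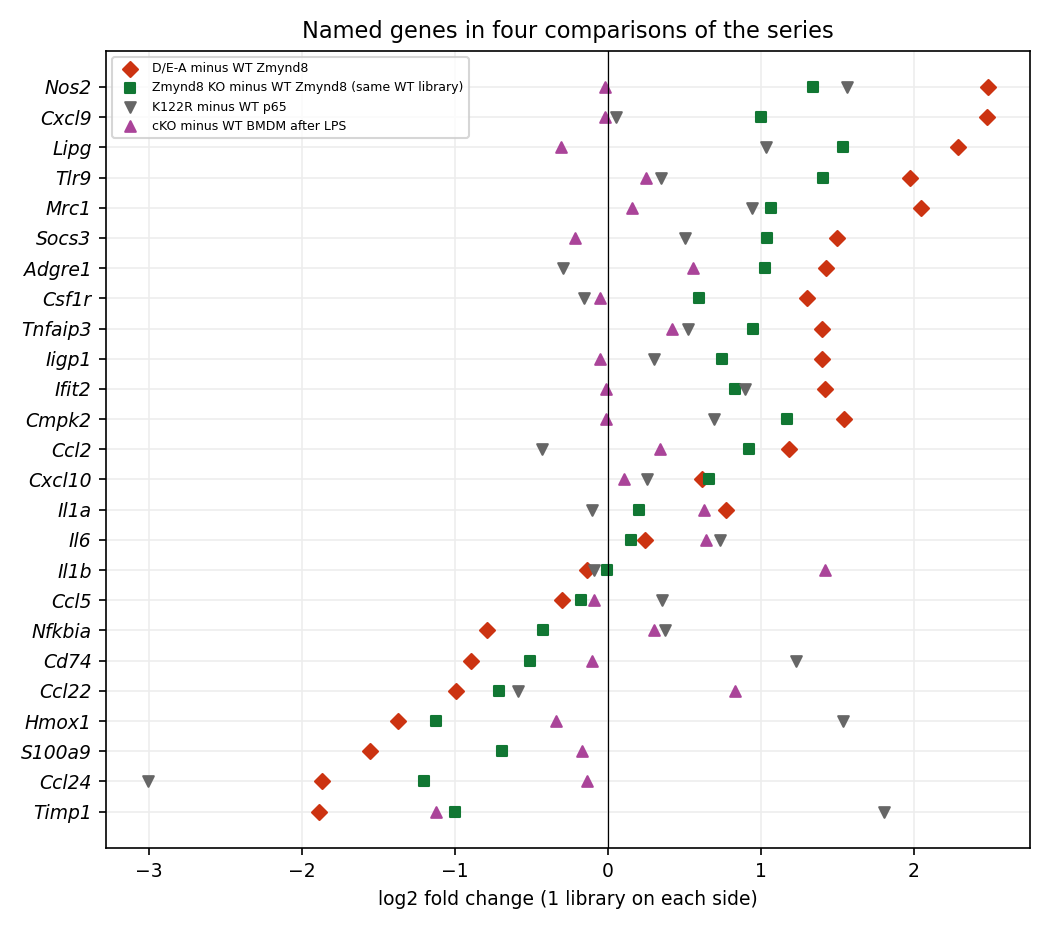
Log2 fold change (x axis) of 25 genes (y axis) in 4 comparisons with 1 library on each side, without error bars. D/E-A (diamonds) and Zmynd8 KO (squares) use the same WT Zmynd8 library, while K122R minus WT p65 and cKO minus WT BMDMs rest on other libraries, in which Nos2 was 1.56 and -0.02.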

How the data were processed

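The authors deposited 1 table for the D/E-A and WT Zmynd8 lines with a signal value per gene, read counts divided by a size factor, with gene, type and position. For the Raw264.7 libraries the aligner, the gene model and the size factors of this table are not given in the sources used here. Per the labels the notes name mm10 among 2 builds, and positions are printed as deposited. Multiples of 1 step (0.977 for WT Zmynd8, 1.02 for D/E-A) gave whole reads within 0.05 for 100% of values in both columns. Columns of the authors' own fold changes and p-values were not used, nor were 2 unlabelled columns of values beside the table. The Zmynd8 KO and K122R tables are of the same kind. The BMDM libraries each mix RNA of biological replicates and were aligned with TopHat to mm10, and their table holds expected counts that the authors estimated, rounded here and scaled to the read total (RPM).

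Fold changes used a pseudocount of 1 and a minimum mean of 1, with calls at 1.2-fold and 2-fold. With 1 library a side no p-value is given. Transcript length and GC content came from the longest protein-coding transcript of each symbol in GENCODE vM21, or the longest of any kind, (a length for 88.6% of genes). Named genes are those the study names, the 15 highest and 15 lowest with a mean of at least 100, the 5 highest and 5 lowest with a mean of at least 1000, and in each list the most abundant member and up to 4 with the largest change; other genes named in the text, such as Gbp8, Isg15, Ifitm3, Oas1g, Aif1, Itgam, Tgtp1 and Cd79a, were chosen after their values were seen. The members and lists were chosen with earlier results of these data known. Alternatives covered pseudocounts, filters, scalings and count tests (edgeR 4.0.16 in R 4.3.3), and length-centring and scaling without ribosomal RNA were added after the data were seen. Promoter windows are from RefSeq. Python 3.11.15, pandas 2.3.3 and SciPy 1.17.1 were used, and the fold changes and limits were tested on simulated data.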

Additional observations from a re-analysis of the deposited data

How the results depend on the processing

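With 1 library on each side, no library could be left out and no difference has a replicate check. No paired analysis was possible because each line has a single library. The 9271 genes called at 1.2-fold became 2345 at 2-fold and 1482 beyond 1.2 on the log2 scale (459 higher, 1023 lower). The edgeR exact test on the reads, which compares these 2 libraries and not the conditions, called 892 genes where the biological coefficient of variation was set to 0.2 (306 higher, 586 lower) and 5 where it was 0.4 (0 higher, so that Nos2 was not called), at an adjusted p under 0.05, so the count rests on an assumed spread. Other settings kept the count within 1.5 times, and the higher share of 50.5% became 36.4% with totals free of ribosomal RNA, 61.2% at a mean of at least 100 and 43.7% after length-centring. Depth limits genes near 21 reads. Of the list medians past 1.2-fold, those of the iron and heme genes turned to 0.15 after length-centring and to 0.0359 at a mean of at least 100, the enhancer coactivators to -0.0622 after length-centring, the mast cell, basophil and eosinophil markers to -0.47 and the histone genes to 0.29 at a mean of at least 100. Of smaller medians, 7 changed sign after length-centring, 1 at a mean of at least 100 and 8 with totals free of ribosomal RNA. Of the 22 genes the study names, Ccl5 turned to 0.34 after length-centring, and 6 that had been within 1.2-fold changed sign as well, Il1b and Zmynd8 among them. With totals free of ribosomal RNA 5 of the 22 did, all within 1.2-fold before. Why these turned was not tested.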
